A study of Mus musculus with 7 samples.

Results

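Expression of 8 primary granule genes was examined in LSK cells. These are marrow cells that lack lineage markers and carry Sca1 and Kit on their surface, and in mice they include the stem cells and early multipotent progenitors of blood. The genes were Mpo, Elane, Prtn3, Ctsg, Ms4a3, Cst7, Srgn and Ctsc. They were picked by name, with earlier results of these data known, as genes of the granulocyte-monocyte progenitor. This committed progenitor gives rise to neutrophils and monocytes. The genes make up 8 of the 24421 gene symbols measured. All 8 passed the filter on low counts, with between 2428 counts in the lowest sample for Ctsc and 700260 counts in the highest sample for Mpo.

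Libraries from 7 samples were sequenced. Ddx41+/+ marrow gave 4 of them, numbered 1 to 4, and Ddx41+/- marrow gave 3, numbered 6 to 8. Ddx41 encodes a DEAD-box RNA helicase, and the study asked how loss of 1 allele alters the transcriptome of progenitors after transplantation. Donor marrow of both genotypes carried Rosa-CreERT2, a Cre recombinase driven from the ubiquitously active Rosa26 locus and switched on by tamoxifen. The Ddx41+/- donors carried in addition 1 floxed Ddx41 allele. Lethally irradiated BoyJ mice received the marrow, were all given 1 mg of tamoxifen daily in 2 rounds of 5 days, and were killed 8 weeks after the transplant. Cre could act in every donor cell and was not limited to LSK cells, and both genotypes had been exposed to Cre, tamoxifen and transplantation. Ages of donors and recipients, and the share of recipient cells left in the sorted fraction, are not given in the sources used here. A Ddx41+/- library numbered 5 was removed by the authors before deposit for a reason that is not stated, and it was not analysed here. Nothing in the labels says whether the replicates of a genotype came from separate donors, so p-values measure the spread between these samples.

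Primary granules, also called azurophil granules, are the first granules made during neutrophil development and are filled at the progenitor and promyelocyte stages. Their transcripts are produced in granulocyte-monocyte progenitors and are shut off as the later, secondary granules form. Mpo encodes myeloperoxidase, which makes hypochlorous acid from hydrogen peroxide. Elane, Prtn3 and Ctsg encode the neutrophil serine proteases, which are stored as active enzymes after Ctsc (cathepsin C) removes their N-terminal dipeptide. Srgn encodes serglycin, the proteoglycan core on which the positively charged enzymes are packed, and Cst7 encodes cystatin F, an inhibitor of lysosomal cysteine proteases including cathepsin C. Ms4a3 encodes a membrane-spanning protein that marks granulocyte-monocyte progenitors. Granulocyte-monocyte progenitors themselves lack Sca1 and fall outside the LSK gate.

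To show where the most abundant members are transcribed from, the 250 bases before the RefSeq start site are given for Mpo and the 3 serine protease genes, in GRCm38.p6 and written 5′ to 3′ on the gene's strand. Capitals mark GAGGAA, a core sequence bound by the myeloid factor PU.1. For Mpo, Elane and Prtn3 the RefSeq start lay inside the longer span that GENCODE M21 gives the gene.
Mpo, chr11:87793534-87793783, plus strand: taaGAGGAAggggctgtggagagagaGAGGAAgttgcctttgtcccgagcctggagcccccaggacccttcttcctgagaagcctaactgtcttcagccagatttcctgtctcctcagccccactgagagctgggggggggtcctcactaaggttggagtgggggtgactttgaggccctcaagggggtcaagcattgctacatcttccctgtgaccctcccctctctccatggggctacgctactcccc
Elane, chr10:79886062-79886311, plus strand: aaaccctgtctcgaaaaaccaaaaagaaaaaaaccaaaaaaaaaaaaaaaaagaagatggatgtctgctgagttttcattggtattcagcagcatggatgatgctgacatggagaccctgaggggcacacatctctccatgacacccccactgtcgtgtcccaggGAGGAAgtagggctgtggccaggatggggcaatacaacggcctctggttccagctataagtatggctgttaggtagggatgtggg
Prtn3, chr10:79879417-79879666, plus strand: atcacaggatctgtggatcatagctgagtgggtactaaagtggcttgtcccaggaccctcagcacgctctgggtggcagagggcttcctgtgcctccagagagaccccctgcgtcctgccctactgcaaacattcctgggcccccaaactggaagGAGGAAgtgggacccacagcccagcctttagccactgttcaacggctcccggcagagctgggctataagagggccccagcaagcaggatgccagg
Ctsg, chr14:56102575-56102824, minus strand: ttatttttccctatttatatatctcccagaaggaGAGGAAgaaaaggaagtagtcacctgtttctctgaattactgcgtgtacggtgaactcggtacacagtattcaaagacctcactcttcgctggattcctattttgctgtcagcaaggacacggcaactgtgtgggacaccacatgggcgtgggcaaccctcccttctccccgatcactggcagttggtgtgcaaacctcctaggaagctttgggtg
RefSeq start sites were matched for all 8 genes, with 9 windows because Srgn has 2 starts. Searched on both strands in windows from 250 bases before to 50 bases after the start, GAGGAA was found for 6 of the 8 genes, the exceptions being Cst7 and Srgn. The same letters were present in 28.3% of 32851 RefSeq promoters of this length. Mpo had matches at positions -247 and -224 from the start, Ctsg at -216, Prtn3 at -95 and Elane at -85. Ctsc had them at -196 and -149 on the opposite strand, and in Ms4a3 the match lay at position 36 after the start. TTNNGNAA (C/EBP) was found for 3 genes, Cst7, Ms4a3 and Srgn, and in 40.7% of all promoters. TGTGGT (RUNX) was found for Cst7, Ctsg and Srgn and in 16.8% of all promoters. AACNG (MYB) was found for 7 genes, Ms4a3 being the exception, and in 80.3% of all promoters, so its presence separates few promoters. These matches describe letters, not bound sites. No match to GAGGAA shared bases with a match to another of these motifs.

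Depth and the labels were examined first. Total counts ranged from 32234499 to 43751290 per sample, with a mean of 36.8 ± 3.65 mega-counts in Ddx41+/+ (SD, n = 4) and 39.3 ± 4.69 mega-counts in Ddx41+/- samples (SD, n = 3). The targeted gene Ddx41 lay between 92.8 and 106.6 CPM (counts scaled to the effective library size) in the Ddx41+/+ samples. In the Ddx41+/- samples it lay between 64.4 and 69.5 CPM, without overlap. Its log2 fold change was -0.54 (SE 0.071, edgeR adjusted p = 0.0052). Of the markers that define the sort, Kit was at 466 ± 32.2 CPM in Ddx41+/+ and 468 ± 19.4 CPM in Ddx41+/- samples. Ly6a, the gene of Sca1, was at 20.9 ± 2.56 CPM and 20.8 ± 8.82 CPM, a low level next to Kit. The 4 hemoglobin genes Hba-a1, Hba-a2, Hbb-bs and Hbb-bt were listed at 0 in all 7 samples, and Cd3e, Cd3g and Cd3d of T cells had at most 13 counts in any sample.

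Primary granule transcripts were abundant in both genotypes. Together the 8 genes held 2.03, 2.28, 2.23 and 2.43% of all counts in the Ddx41+/+ samples, in the order of replicates. In the Ddx41+/- samples they held 2.49, 2.57 and 2.50%. The means were 2.24 ± 0.165% (SD, n = 4) and 2.52 ± 0.0431% (SD, n = 3), and every Ddx41+/- sample lay above every Ddx41+/+ sample. Mpo alone made up between 63.1 and 65.8% of the members' counts. By CPM, Mpo ranked first among all genes in Ddx41+/+ replicate 4 and Ddx41+/- replicate 8 and second in the 5 other samples, where only the ribosomal RNA precursor Rn45s stood above it. Elane ranked between 7 and 14, Prtn3 between 10 and 19, and Ctsg between 18 and 28. Because whole LSK populations were sequenced, a larger number of cells with these transcripts and more transcript per cell cannot be told apart.

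Scaled to merged exon length, which allows genes to be compared, the order over all 7 samples was Mpo, Elane, Ctsg, Prtn3, Srgn, Ms4a3, Cst7 and Ctsc. Mpo was at 4439 ± 410 CPM per kilobase and Elane at 2715 ± 343 CPM per kilobase (SD, n = 7). Ctsg (1801 ± 135 CPM per kilobase) and Prtn3 (1358 ± 127 CPM per kilobase) followed, and Ctsg was the higher of this pair in 7 of 7 samples although their ranges over samples overlapped. Per kilobase of coding sequence their order was turned, with Prtn3 at 3051 ± 286 and Ctsg at 2376 ± 178 CPM per kilobase, so the rank of this pair depends on how length is counted. Srgn (340 ± 22.0 CPM per kilobase) and Ms4a3 (316 ± 28.4 CPM per kilobase) had overlapping ranges on this scale, with Srgn higher in 6 of 7 samples. Per kilobase of coding sequence these genes were apart, at 1637 ± 106 CPM for Srgn and 932 ± 83.7 CPM for Ms4a3, without overlap. Cst7 was at 125.9 ± 13.9 and Ctsc at 13.2 ± 1.22 CPM per kilobase, so the activating protease was the least abundant member on this scale.

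**Figure D1:**
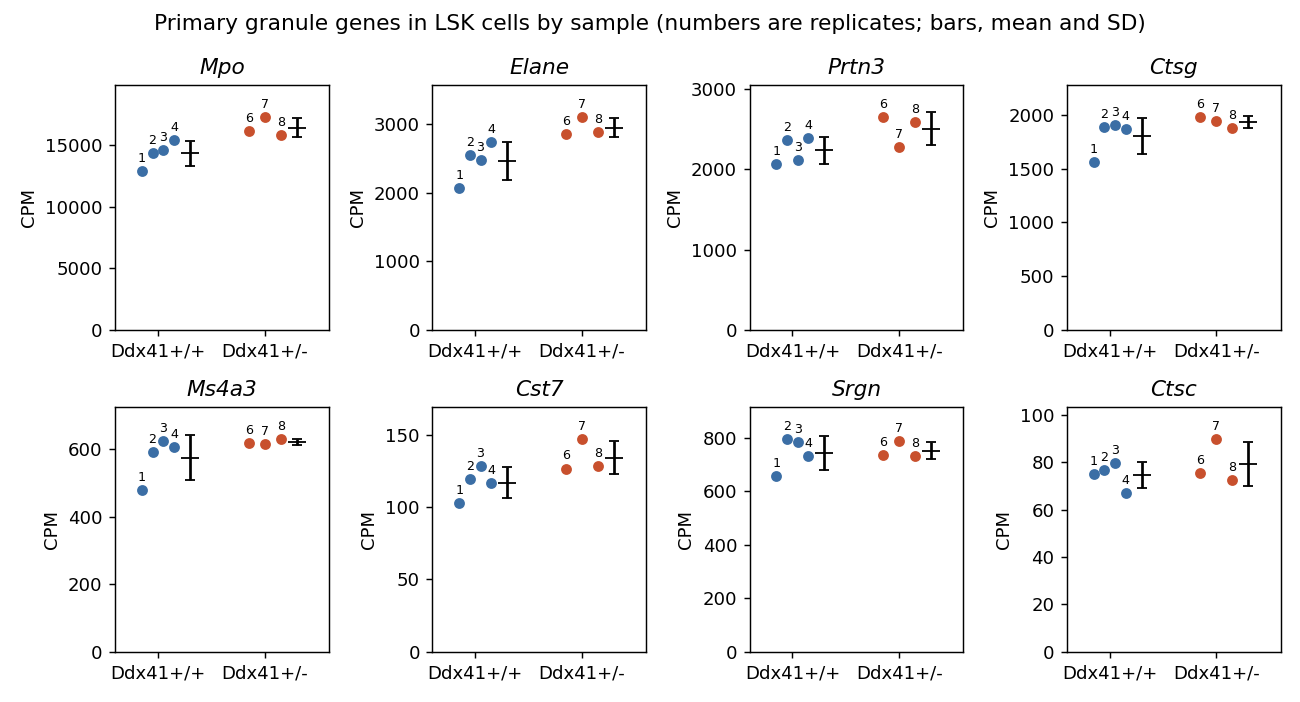
Expression of the 8 primary granule genes in each sample, on a linear CPM axis that starts at 0, with points for single samples labelled by replicate number and black bars for the mean and SD of each genotype. Mpo and Elane were higher in all 3 Ddx41+/- samples than in all 4 Ddx41+/+ samples, whereas Ddx41+/+ replicate 1 was the lowest sample for 7 of the 8 genes.

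The comparison of genotypes asked whether LSK cells with 1 Ddx41 allele differed in these genes. None of the 8 genes passed at a Benjamini-Hochberg (BH) adjusted p under 0.05 over all genes tested with edgeR, where 0.217% of 13340 genes did (0.12% with a higher level in Ddx41+/-). DESeq2 and limma-voom also called 0 of 8 genes. For DESeq2 the share over all genes was 1.28% in either direction and 0.718% with a higher level in Ddx41+/-, and for limma-voom it was 0.075%. At an unadjusted p under 0.05 edgeR gave 4 of 8 genes, Mpo, Elane, Prtn3 and Cst7, each with a higher mean in Ddx41+/-, where 5.7% of all genes were higher at this threshold and 10.6% passed in either direction. DESeq2 and limma-voom each also gave 4 of 8 at an unadjusted p under 0.05, beside 11.1% and 10.7% of all genes. All 8 fitted fold changes were above 0, as were 48.8% of those of all genes, and the median log2 fold change was 0.14 for the members and -0.0048 for all genes tested. CPM values did not overlap between genotypes for Mpo and Elane, 2 of the 8 genes, both higher in Ddx41+/-, where 4.85% of all genes were separated in this direction and 10.1% in either. Because the members were chosen with earlier results of these data known, these counts beside the shares are description and not a test.

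Mpo (chromosome 11, 87793581 to 87804413, plus strand, 15 merged exons in GENCODE M21 on GRCm38) was at 12909, 14378, 14553 and 15376 CPM in Ddx41+/+ replicates 1 to 4. It was at 16112, 17267 and 15788 CPM in Ddx41+/- replicates 6, 7 and 8. All 3 Ddx41+/- samples were therefore above the highest Ddx41+/+ sample, replicate 4, which lay closer to Ddx41+/- replicate 8 than to Ddx41+/+ replicate 3. The means of 14304 ± 1027 CPM (SD, n = 4) and 16389 ± 778 CPM (SD, n = 3) put Ddx41+/- samples at 114.6% of the Ddx41+/+ level. On the log2 scale the fold change was 0.20 (SE 0.068, 95% interval 0.052 to 0.34), with an edgeR adjusted p of 0.314, and across 17 alternative fits it stayed between 0.11 and 0.23. Exons of Mpo share 512 bases with the antisense gene Gm11505, or 14.95% of their length. The labels name a stranded mRNA kit and the study's methods a TruSeq kit that does not mark strand, and the use of strand in counting is not stated. Reads from that stretch therefore cannot be assigned with certainty.

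Elane (chromosome 10, 79886247 to 79888215, plus strand), which encodes neutrophil elastase, had the largest fold change of the 8 genes. In the order of replicates it was at 2076, 2554, 2476 and 2748 CPM in Ddx41+/+ and at 2855, 3108 and 2884 CPM in Ddx41+/- samples. As for Mpo, all Ddx41+/- samples were above all Ddx41+/+ samples, and the lowest and highest values came from Ddx41+/+ replicate 1 and Ddx41+/- replicate 7. Means were 2463 ± 283 CPM (SD, n = 4) and 2949 ± 138 CPM (SD, n = 3). This gave a log2 fold change of 0.26 (SE 0.080, 95% interval 0.089 to 0.43, edgeR adjusted p = 0.264). Without Ddx41+/+ replicate 1 it was 0.19, and without both that sample and Ddx41+/- replicate 7 it was 0.15. Elane was also the member with the smallest adjusted p in any alternative, 0.0819 with DESeq2.

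Prtn3 (chromosome 10, 79874476 to 79883174, plus strand), the gene of proteinase 3, lies 3072 bases before Elane on the same strand. Its values were 2072, 2367, 2113 and 2394 CPM in Ddx41+/+ and 2654, 2274 and 2591 CPM in Ddx41+/- samples in the order of replicates. Unlike Mpo and Elane, its genotypes overlapped, because Ddx41+/- replicate 7, where Mpo and Elane were highest, had the lowest Prtn3 level of its group, below Ddx41+/+ replicates 2 and 4. The log2 fold change was 0.16 (SE 0.072, 95% interval 0.012 to 0.32, edgeR adjusted p = 0.427), and it was 0.23 without Ddx41+/- replicate 7. The ratio of Elane to Prtn3 counts was 1.37 in Ddx41+/- replicate 7 and between 1.00 and 1.17 in the 6 other samples. An exon of Prtn3 shares 159 bases, 9.18% of the exon length of Prtn3, with Plppr3 on the opposite strand. That gene, listed as Lppr3, was at 284 ± 22.6 CPM in Ddx41+/+ and 277 ± 30.2 CPM in Ddx41+/- samples, and how reads of the shared stretch were assigned is not stated.

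Ctsg (chromosome 14, 56099881 to 56102574, minus strand), the gene of cathepsin G, was at 1558, 1889, 1907 and 1866 CPM in Ddx41+/+ and at 1981, 1944 and 1875 CPM in Ddx41+/- samples. Apart from Ddx41+/+ replicate 1 the samples lay close together, and Ddx41+/- replicate 8 was below Ddx41+/+ replicates 2 and 3. The log2 fold change was 0.099 (SE 0.071, 95% interval -0.051 to 0.25, edgeR adjusted p = 0.661) and was 0.035 without Ddx41+/+ replicate 1. Of the 3 serine protease genes, Ctsg thus had the smallest fold change and Elane the largest, but their intervals overlapped and the differences between the genes were not tested.

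Ms4a3 (chromosome 19, 11629496 to 11640851, minus strand) showed a similar arrangement of samples. It was at 478, 591, 626 and 607 CPM in Ddx41+/+ and at 619, 616 and 632 CPM in Ddx41+/- samples. The Ddx41+/- samples lay within a narrow range (622 ± 8.33 CPM, SD, n = 3), and Ddx41+/+ replicate 3 exceeded 2 of them. The log2 fold change of 0.11 (SE 0.078, 95% interval -0.053 to 0.28, edgeR adjusted p = 0.654) was 0.034 when Ddx41+/+ replicate 1 was left out.

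Cst7 and Ctsc, the inhibitor and the activating protease, were the least abundant members. Cst7 (chromosome 2, 150570415 to 150578944, plus strand) was at 102.4, 119.5, 128.6 and 116.5 CPM in Ddx41+/+ and 126.5, 147.2 and 128.5 CPM in Ddx41+/- samples. Only Ddx41+/- replicate 7 was above every Ddx41+/+ sample. Its log2 fold change was 0.20 (SE 0.080, 95% interval 0.029 to 0.37, edgeR adjusted p = 0.384), and it was 0.13 without that sample. Ctsc (chromosome 7, 88278085 to 88310888, plus strand) was at 74.8, 76.6, 79.7 and 67.1 CPM in Ddx41+/+ and 75.6, 89.9 and 72.4 CPM in Ddx41+/- samples. The genotypes overlapped, again with Ddx41+/- replicate 7 as the highest sample, and this was the one member whose lowest value was not in Ddx41+/+ replicate 1. Its log2 fold change was 0.089 (SE 0.085, 95% interval -0.091 to 0.27, edgeR adjusted p = 0.764) and turned to -0.012 without Ddx41+/- replicate 7.

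Srgn (chromosome 10, 62493833 to 62527451, minus strand), which many hematopoietic cells other than granulocyte precursors also express, was at 657, 797, 783 and 734 CPM in Ddx41+/+ and 735, 787 and 733 CPM in Ddx41+/- samples. All 3 Ddx41+/- samples lay within the range of the Ddx41+/+ samples, and the highest value was in Ddx41+/+ replicate 2. Its log2 fold change was 0.017 (SE 0.069, 95% interval -0.13 to 0.16, edgeR adjusted p = 0.957), the smallest of the 8, and it was -0.037 without Ddx41+/+ replicate 1. The ratio of Mpo to Srgn counts, a measure within each library, ranged from 18.0 to 20.96 in Ddx41+/+ and from 21.5 to 21.9 in Ddx41+/- samples, without overlap. This ratio sets a member that itself did not overlap against the member with the smallest fold change. How often other gene pairs are separated was not counted. The ratio of Mpo to Elane counts did overlap, at 5.59 to 6.22 in Ddx41+/+ and 5.47 to 5.64 in Ddx41+/- samples.

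**Figure D2:**
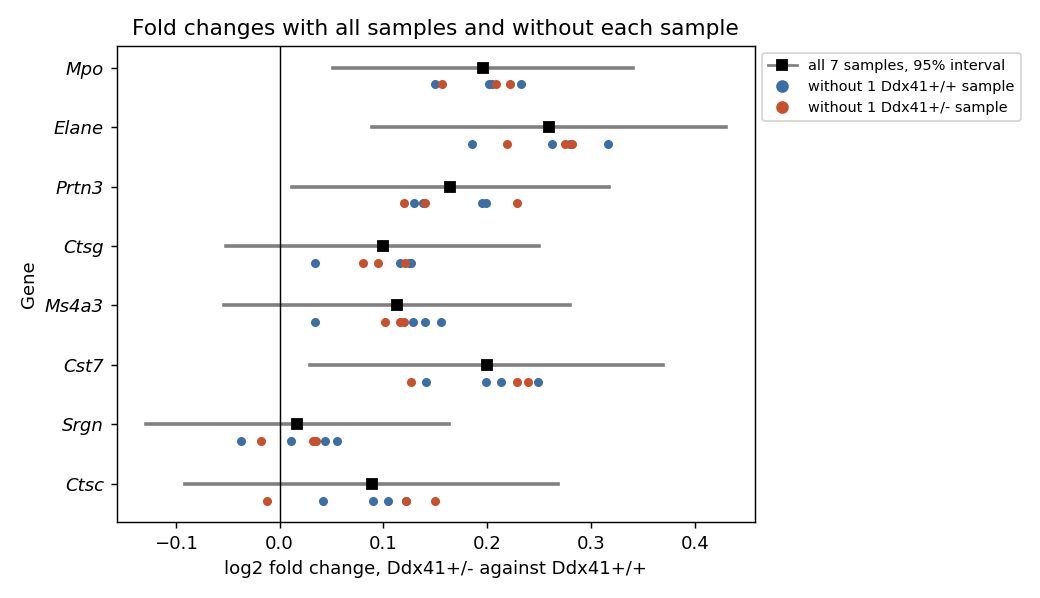
Log2 fold change of each primary granule gene, Ddx41+/- against Ddx41+/+, as fitted with all 7 samples (black squares with 95% intervals) and without each sample in turn (points below, coloured by the genotype of the sample left out). Intervals lie above 0 for Mpo, Elane, Prtn3 and Cst7 before adjustment, and the points of Srgn and Ctsc fall on both sides of 0.

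How the genes varied together across samples was examined with log2 CPM centred on each gene's mean over the 7 samples. Averaged over the 8 genes, the centred value was -0.23 in Ddx41+/+ replicate 1 and -0.0050, 0.00040 and -0.018 in Ddx41+/+ replicates 2, 3 and 4. It was 0.067, 0.13 and 0.049 in Ddx41+/- replicates 6, 7 and 8. Ddx41+/+ replicate 1 was thus farther from the other Ddx41+/+ samples than these were from the Ddx41+/- samples. It was the lowest of all 7 samples for 7 of the 8 genes, and Ddx41+/- replicate 7 was the highest of its group for 5 of the 8. When Ddx41+/+ replicate 1 was left out, 2 of the 8 genes, Mpo and Elane, remained at an unadjusted p under 0.05 with edgeR, beside 11.5% of all genes in the same fit. When Ddx41+/- replicate 7 was left out, or both samples, the count was also 2, then with Elane and Prtn3. The shares over all genes in those fits were 7.31% and 9.26%. Measured against Mpo, the root mean square difference of centred log2 CPM was smallest for Elane (0.058) and Cst7 (0.070), and largest for Srgn (0.11), Prtn3 (0.11) and Ctsc (0.14).

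**Figure D3:**
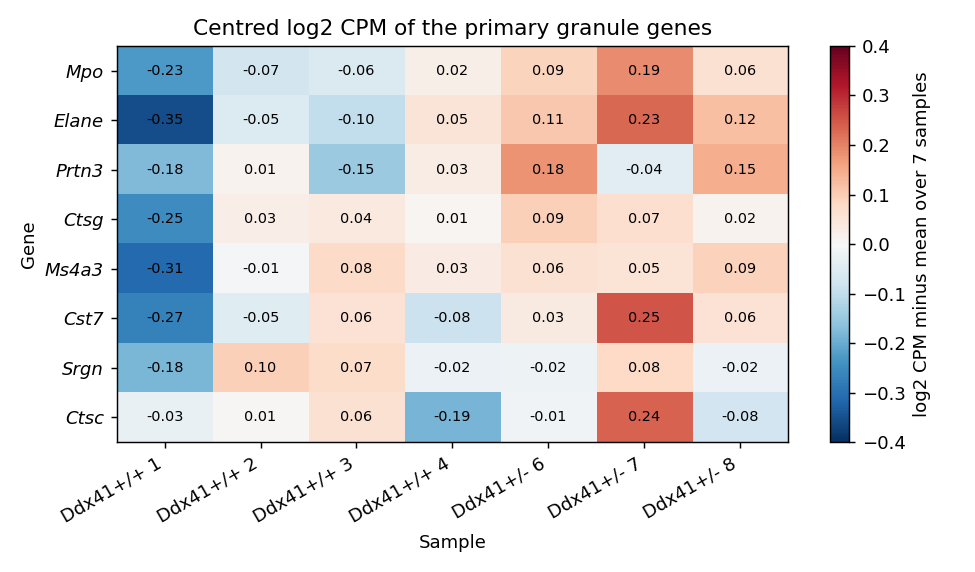
Log2 CPM of each primary granule gene minus its mean over the 7 samples, with samples in columns, genes in rows, and colour and printed values giving the difference. Ddx41+/+ replicate 1 is below the mean for every gene, and Prtn3 is the only gene below its mean in Ddx41+/- replicate 7.

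Among 8882 genes with a mean of at least 10 CPM, those whose centred profile over the 7 samples was nearest to the members' mean profile were Msrb1 (root mean square difference 0.017), Lamtor2 (0.020), Socs6 (0.023), Slc35a5 (0.026) and Atg12 (0.027). Nearest to Mpo alone were Zscan26 (0.025), Fastkd2 (0.027), Nemf (0.034), Nudt4 (0.038) and Det1 (0.038). Each of the 5 nearest to Mpo was closer to it than Elane was. With 7 samples such likeness describes these libraries only.

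List counts below stand beside shares over all genes of 5.7% higher in Ddx41+/- and 10.6% in either direction at an unadjusted p under 0.05. Other genes of the same progenitor stage were read as a list of 16, chosen like the lists below with earlier results of these data known. No gene of it passed after adjustment with edgeR, 6 of 16 were higher at an unadjusted p under 0.05 and 0 lower, and all 16 fold changes were above 0 with a median log2 fold change of 0.16. Its most abundant gene, Plac8, which encodes a small cysteine-rich protein, was at 1608 ± 199.6 CPM in Ddx41+/+ and 1700.0 ± 147 CPM in Ddx41+/- samples (SD, n = 4 and 3, here and for the genes that follow). Alas1, the first enzyme of heme synthesis outside erythroid cells, was at 511 ± 37.7 CPM in Ddx41+/+ and 559.7 ± 35.3 CPM in Ddx41+/- samples. The surface antigen gene Ly6c2 was at 475 ± 78.8 CPM in Ddx41+/+ and 534 ± 32.6 CPM in Ddx41+/- samples, and the hexokinase gene Hk3 at 438 ± 19.3 CPM in Ddx41+/+ and 496 ± 42.3 CPM in Ddx41+/- samples. These spreads are as wide as the differences for Plac8 and Ly6c2, and none of the 4 passed after adjustment. Of the 16 genes, 3 lay higher in Ddx41+/- without overlap, where 4.85% of all genes did. Singled out after their values were seen, these were Fcnb (ficolin B), Hp (haptoglobin) and Igsf6. Their log2 fold changes were 0.43 (SE 0.12, edgeR adjusted p = 0.195), 0.26 (SE 0.077, edgeR adjusted p = 0.237) and 0.23 (SE 0.084, edgeR adjusted p = 0.335). Fcnb was at 24.2, 33.6, 34.2 and 35.4 CPM in Ddx41+/+ and 40.4, 47.3 and 40.6 CPM in Ddx41+/- samples, so that Ddx41+/+ replicate 1 and Ddx41+/- replicate 7 were again the extremes. The list summed to between 4587 and 5576 CPM in Ddx41+/+ and between 5527 and 5853 CPM in Ddx41+/- samples.

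The transcription factors that act on granule genes were read as a list of 12. Of these genes, 0 passed after adjustment and 2 were higher at an unadjusted p under 0.05, Cebpe and Klf4, named after their values were seen, with log2 fold changes of 0.21 (SE 0.097) and 0.42 (SE 0.15) and edgeR adjusted p-values of 0.447 and 0.321. Cebpe acts at the promyelocyte stage and Klf4 in monocytes. The median log2 fold change was 0.060. Myb, required for progenitor growth, was at 830.3 ± 33.8 CPM in Ddx41+/+ and 872 ± 58.5 CPM in Ddx41+/- samples. Etv6, a repressor needed by stem cells, was at 481 ± 19.1 CPM in Ddx41+/+ and 468 ± 27.4 CPM in Ddx41+/- samples. Irf8, which favours monocytes, was at 331 ± 7.71 CPM in Ddx41+/+ and 345 ± 48.5 CPM in Ddx41+/- samples, and Spi1, which encodes PU.1, at 176 ± 12.8 CPM in Ddx41+/+ and 183 ± 9.49 CPM in Ddx41+/- samples. None of these 4 had an edgeR adjusted p below 0.735.

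Genes that restrain or assist the granule enzymes, 14 inhibitors, other cathepsins and chaperones, had a median log2 fold change of 0.062, with 0 genes past the adjusted threshold and 2 higher at an unadjusted p under 0.05. These 2 were Calr and Canx, the endoplasmic reticulum chaperones calreticulin and calnexin, which take part in folding of myeloperoxidase. Calr was at 2493, 2862, 2982 and 2723 CPM in Ddx41+/+ and 3047, 3377 and 3147 CPM in Ddx41+/- samples, without overlap, and its log2 fold change was 0.21 (SE 0.068, edgeR adjusted p = 0.296). Canx had a log2 fold change of 0.20 (SE 0.069, edgeR adjusted p = 0.314). Serpinb1a, an inhibitor of neutrophil elastase, was at 343 ± 40.1 CPM in Ddx41+/+ and 350.1 ± 7.24 CPM in Ddx41+/- samples, and the aspartic protease gene Ctsd at 389 ± 20.0 CPM in Ddx41+/+ and 364 ± 15.1 CPM in Ddx41+/- samples. Among 14 genes of general lysosomal proteins the median log2 fold change was 0.042, with 0 genes past the adjusted threshold and 2 higher at an unadjusted p under 0.05, and the most abundant, Psap (prosaposin), was at 817 ± 35.8 CPM in Ddx41+/+ and 869 ± 103 CPM in Ddx41+/- samples.

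Markers of later stages and of other cells were read beside the granule genes. Over all genes tested, 5.7% were higher in Ddx41+/- at an unadjusted p under 0.05 and 4.85% lay higher without overlap. Their median log2 fold change was -0.0048. Of 13 measured genes of later neutrophils (Ly6g was not analysed here), 11 were higher in Ddx41+/- at an unadjusted p under 0.05, 9 did not overlap between genotypes, and the median log2 fold change was 0.79. The gene that passed after adjustment was Mmp9, the gelatinase of tertiary granules, which rose from 5.62 ± 1.56 CPM in Ddx41+/+ (SD, n = 4) to 16.7 ± 4.14 CPM in Ddx41+/- samples (SD, n = 3), a log2 fold change of 1.57 (SE 0.21, edgeR adjusted p = 0.00677). Among the most abundant, the calprotectin gene S100a9 was at 269 ± 62.1 CPM in Ddx41+/+ and 478 ± 144 CPM in Ddx41+/- samples, and its partner S100a8 at 201 ± 46.8 CPM in Ddx41+/+ and 317 ± 53.7 CPM in Ddx41+/- samples. The secondary granule gene Ngp was at 230.2 ± 56.7 CPM in Ddx41+/+ and 413 ± 139 CPM in Ddx41+/- samples, and Ltf (lactoferrin) at 127 ± 32.9 CPM in Ddx41+/+ and 229 ± 82.7 CPM in Ddx41+/- samples. None of these 4 passed after adjustment. In the order of replicates the list summed to 880, 1073, 1432 and 1251 CPM in Ddx41+/+ and to 2565, 1793 and 1523 CPM in Ddx41+/- samples. These sums did not overlap, Ddx41+/+ replicate 1 was again the lowest, and the highest was Ddx41+/- replicate 6 rather than replicate 7. None of these markers was at 0, and their part in the levels of the primary granule genes was not tested.

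The monocyte and macrophage list had 3 of 9 tested genes higher at an unadjusted p under 0.05, 0 past the adjusted threshold, and a median log2 fold change of 0.31. It summed to between 947 and 1114 CPM in Ddx41+/+ and to 1290, 1660 and 1104 CPM in Ddx41+/- samples, mostly from F13a1, which encodes a coagulation factor subunit and was at 769 ± 71.2 CPM in Ddx41+/+ and 1029 ± 242 CPM in Ddx41+/- samples. Mast cell, basophil and eosinophil markers, which include proteases stored in other granules, gave 1 of 12 higher and 3 of 12 lower at an unadjusted p under 0.05, with a median of -0.025 and sums of 386 to 549 CPM in Ddx41+/+ and 488 to 625 CPM in Ddx41+/- samples. In 10 B-lineage genes the sum was 439.5 CPM in Ddx41+/- replicate 7 and at most 195.3 CPM elsewhere. Most of the sum in that replicate came from Jchain, which was at 346.1 CPM there and at most 128.0 CPM elsewhere. All 10 B-lineage genes had a fold change above 0, with a median log2 fold change of 0.78. At an unadjusted p under 0.05 with edgeR, 3 of the 10 were higher and 0 lower, and 1 lay higher without overlap. The T and NK cell list summed to between 21.04 and 25.6 CPM in Ddx41+/+ and between 17.8 and 19.9 CPM in Ddx41+/- samples, without overlap. Of its 5 tested genes 0 had a fold change above 0, 1 was lower at an unadjusted p under 0.05, and the median log2 fold change was -0.56. Taken singly, 0 of the 5 were without overlap. Levels were low, with Lck between 9.55 and 13.1 CPM and the other tested genes of the list at no more than 5.05 CPM. The erythroid genes other than hemoglobin summed to between 133.0 and 249.6 CPM, with 0 of 6 past an unadjusted p of 0.05. Stem and progenitor identity genes had 0 of 10 higher and 6 of 10 lower at an unadjusted p under 0.05, with a median log2 fold change of -0.35. Of the 10, 1 had a fold change above 0, and 3 lay lower without overlap, where 10.1% of all genes did not overlap in either direction. These 3, named after their values were seen, were Hlf (log2 fold change -0.46, edgeR adjusted p = 0.0620), Slamf1 (-0.46, edgeR adjusted p = 0.355) and Procr (-0.61, edgeR adjusted p = 0.360). The most abundant of the 10, Cd34, was at 777 ± 51.5 CPM in Ddx41+/+ and 694 ± 51.6 CPM in Ddx41+/- samples. The list summed to between 1700 and 1901 CPM in Ddx41+/+ and between 1582 and 1730 CPM in Ddx41+/- samples. None of these lists held a further gene past the adjusted threshold with edgeR, and their part in the granule gene levels was not tested.

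**Figure D4:**
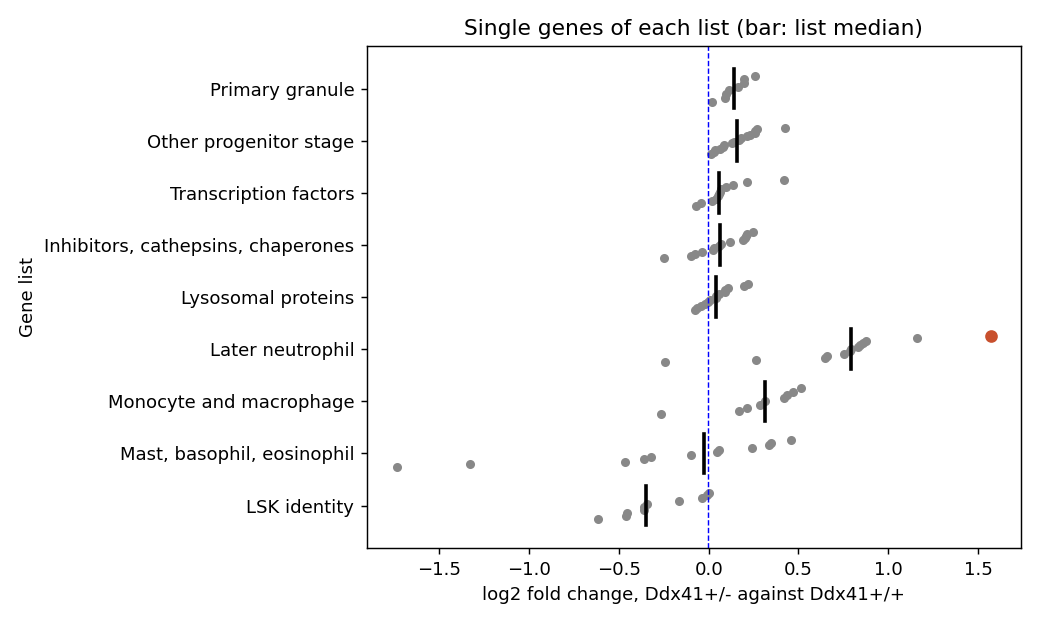
Log2 fold change of each tested gene in the primary granule set and the companion lists, Ddx41+/- against Ddx41+/+, with black bars for list medians, a dashed line for the median of all genes tested, and orange for the gene with an adjusted p under 0.05 (Mmp9). The T and NK cell, B-lineage and erythroid lists are not drawn. The primary granule genes lie between 0.017 and 0.26, near the other genes of their stage, while the later neutrophil genes reach 1.57.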

How the data were processed

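Bulk RNA-seq of sorted LSK cells was available for 4 Ddx41+/+ and 3 Ddx41+/- samples, grouped by the genotype in the labels. The authors prepared poly(A) libraries, and the values they deposited are whole-number read counts for each gene symbol without normalization. The submitters' processing notes name FastQC 0.11.7, HISAT2 2.0.5, featureCounts 1.5.2 and the mm10 build. The labels name a stranded mRNA kit whereas the study's methods name a TruSeq kit that does not mark strand. The annotation, the use of strand, the handling of shared reads and whether reads or read pairs were counted are not given in the sources used here. The number of reads is large for every member, so the spread between samples sets the precision.

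Genotypes were compared in R 4.3.3 with edgeR 4.0.16, by its quasi-likelihood test (robust, TMM scaling, filterByExpr by genotype), which left 13340 genes. P-values were BH-adjusted over these genes with a threshold of 0.05. CPM used TMM-scaled library sizes, and log2 CPM a prior count of 2. DESeq2 1.42.0, limma-voom (limma 3.58.1), other scalings, no filter, and leaving out samples were alternatives. The procedure was tested on simulated data with changes larger than those of the members, so recovery of changes as small as theirs was not tested. Of 21 sample pairs none agreed within sampling noise (chi-square per gene at least 13.7). Positions and exon lengths came from GENCODE M21 by symbol.

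The members and all lists were chosen with earlier results of these data known. Named genes were the members, Ddx41, the genes of each list past the threshold and its 4 most abundant, and the 5 nearest profiles to the members' mean and to Mpo among genes of at least 10 CPM, without predicted genes. Some lists were given by counts and ranges. Genes outside the rule are said to be so, apart from Ly6a, Ly6g, the hemoglobin and Cd3 genes, Rn45s, Gm11505 and Lppr3. Those were named to describe the sort, a list, the ranks or shared exons. No list was tested, and no values of the authors' own comparisons were used.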

Additional observations from a re-analysis of the deposited data

Results flagged for a closer look

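Values of the granule genes and of summary measures were searched for single Ddx41+/+ samples far from the rest of their group with Dixon's ratio, the gap to the nearest sample divided by the range. The 3 Ddx41+/- samples are too few for it. Of 24 values checked, 2 stood out, both from Ddx41+/+ replicate 1. For independent values chance gives about 1 in 20, or 1.2. These values were not independent, because the mean over the 8 genes includes Ctsg and all values share the same samples. The 2 flags therefore cannot be weighed against 1.2. Ctsg was at 1558 CPM there and at least at 1866 CPM in the 3 other Ddx41+/+ samples (ratio 0.884). The mean centred log2 CPM of the 8 genes was -0.23 there and at least -0.018 in the 3 others (ratio 0.917). Its total of 40645611 counts was the highest of the group, and the cause was not tested.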

How the results depend on the processing

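No paired analysis was possible because the replicate numbers of the genotypes (1 to 4 and 6 to 8) do not overlap. No granule gene passed an adjusted p of 0.05 in any of the 17 alternative fits, so that the number called was 0 in each, including those that left out 1 sample. At an adjusted p under 0.1 it was 0 with edgeR and 1, Elane, with DESeq2 (DESeq2 adjusted p = 0.0819). The share of all genes that DESeq2 called at 0.1 was not counted, and at 0.05 it was 1.28%. The number of genes called over the whole table (29) was 15 with library totals only, 91 without an expression filter, 164 with DESeq2, 10 with limma-voom, 14 with a non-robust fit and 74 at an adjusted p under 0.1, and ranged from 7 to 41 without 1 sample. It was 7 without Ddx41+/+ replicate 2, 16 without Ddx41+/+ replicate 3, 14 without Ddx41+/- replicate 7 and 9 without Ddx41+/- replicate 8. Granule genes without overlap numbered 2, and from 2 to 4 without 1 sample, with 4 without Ddx41+/+ replicate 3. In that run 15.2% of all genes did not overlap, and from 13.4 to 23% did not in the runs without 1 sample, against 10.1% with all samples. Mpo, Elane, Prtn3, Ctsg, Ms4a3 and Cst7 kept a positive log2 fold change in all 17 fits. Srgn (0.017, with 0.055 without Ddx41+/+ replicate 2 as the highest value) turned to -0.022 with sample quality weights, -0.037 without Ddx41+/+ replicate 1 and -0.018 without Ddx41+/- replicate 7, and Ctsc (0.089, and 0.15 without Ddx41+/- replicate 8) to -0.012 without Ddx41+/- replicate 7. With both samples left out, an alternative chosen after seeing the data, Srgn was -0.072, Ctsc -0.0088, Mpo 0.11 and Cst7 0.070. The causes of these changes were not tested. Depth does not limit the members, and 3 Ddx41+/- samples do limit the intervals. Ddx41 was called in all 17 fits.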
